A study of Mus musculus with 64 samples.

Results

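Expression of 10 genes that govern how glucose enters a skeletal muscle fiber and is stored as glycogen was followed in mouse gastrocnemius, and all 10 passed the filter on low counts. They were named by symbol, 10 of the 55401 genes in the count table: the glucose transporters Slc2a1, Slc2a3 and Slc2a4, the proteins that hold or release transporters (Tbc1d1, Tbc1d4 and Txnip), the hexokinases Hk1 and Hk2, and the glycogen enzymes Gys1 and Gbe1. Mice were fl/fl controls, which carry Hif1a alleles with exon 2 floxed and no Cre, or HIF1α KO littermates that also carried Cre driven by the human skeletal actin promoter (HSA-Cre). By this design the deletion is directed to cells in which the promoter is active, so other cells of the muscle, such as endothelial, blood and nerve cells, are not targeted. All mice were aged 12 to 18 weeks. Breeding to C57BL/6JBomTac had lasted between 2 and 9 generations. The number for each mouse was not available, so its part in the differences between mice could not be tested. The mice were sedentary or ran on a treadmill for 60 min at speeds rising from 6 to 16 m/min with a 5% incline. Runs and mock runs were at ZT3 (early light phase) or ZT15 (early dark phase), and muscle was taken 3 h after the run. ZT3 and ZT15 thus name the time of the run, and the muscle was collected later. Each of the 8 groups held 8 mice, except for 7 exercised HIF1α KO mice at ZT3, which left 63 mice: 32 fl/fl and 31 HIF1α KO, 32 sedentary and 31 exercised, 31 at ZT3 and 32 at ZT15, 32 females and 31 males.

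Glucose reaches the fiber interior through GLUT4, the product of Slc2a4, which insulin and contraction bring from storage vesicles to the surface, and through GLUT1 (Slc2a1), which resides there. TBC1D1 and TBC1D4 are Rab GTPase-activating proteins that retain GLUT4 vesicles until they are phosphorylated, and TXNIP is an arrestin that drives the internalization of glucose transporters. Hexokinase traps the sugar as glucose 6-phosphate, glycogen synthase (Gys1) lengthens the glycogen chain, and branching enzyme (Gbe1) adds its side chains. HIF1α is a hypoxia-responsive transcription factor whose known targets include glucose transporter and hexokinase genes, so the genotype comparison asked whether these transcripts depended on it, and the exercise and time comparisons asked how they moved after a run and between rest and activity phases.

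The promoters of Txnip and Hk2 are shown because Txnip moved with time of day and Hk2 with exercise, though neither passed the test for genotype. Each has a well known regulator, the sugar-sensing factor MondoA for Txnip and HIF1α for Hk2. The 250 bases upstream of the RefSeq start, written 5′ to 3′ on the gene's strand (build GRCm38.p6), are at chr3:96557707-96557956 on the plus strand for Txnip and at chr6:82774455-82774704 on the minus strand for Hk2. Capitals mark CACGAG, an element of the carbohydrate response element, in Txnip. In Hk2 they mark ACGTG, a form of the HIF core, read here as its reverse complement. Other forms of the HIF core were not searched.
Txnip: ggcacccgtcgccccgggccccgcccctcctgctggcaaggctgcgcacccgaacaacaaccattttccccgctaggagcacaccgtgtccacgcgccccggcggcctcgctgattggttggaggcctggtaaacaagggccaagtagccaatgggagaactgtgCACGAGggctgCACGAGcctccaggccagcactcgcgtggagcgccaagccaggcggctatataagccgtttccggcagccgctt
Hk2: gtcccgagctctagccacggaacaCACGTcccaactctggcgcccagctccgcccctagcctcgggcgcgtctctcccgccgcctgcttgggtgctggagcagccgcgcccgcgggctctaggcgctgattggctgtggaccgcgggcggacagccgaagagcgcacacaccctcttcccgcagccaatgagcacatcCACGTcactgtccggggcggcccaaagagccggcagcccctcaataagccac
Txnip held CACGAG at 85 and 74 bases upstream, and Hk2 held ACGTG at 226 and 52 bases upstream. Among the 8 genes with a RefSeq promoter entry (10 windows in all), Slc2a1 also held ACGTG, at 36 bases, and Gys1 held CACGAG, at 11 bases. None of the windows held CACGTG, the E-box of the clock factors, which contains ACGTG. Searched on both strands of 32851 promoter windows of the same length, ACGTG was found in 16.6%, CACGAG in 5.37% and CACGTG in 6.02%. These matches are letters in a window and no measure of binding.

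The deposited counts per library ranged up to 40377963 with a median of 16236352, and the 3 shallowest held 2359780, 2767721 and 4180403. The median count of 7 of the 10 genes lay between 759 (Tbc1d4) and 9072 (Txnip), but Slc2a1 (11 to 207 counts), Slc2a3 (6 to 261) and Hk1 (21 to 332) rested on few reads. Hif1a itself was at 36.4 ± 4.804 CPM in HIF1α KO and 36.4 ± 6.31 CPM in fl/fl (SD, n = 31 and 32). A count over the whole gene is no check on the removal of 1 exon, so the genotype labels could not be verified from these values. The tissue was checked by its markers, and 9 genes of muscle fibers summed to 209355 to 348083 CPM in each library. In whole muscle, fewer cells of a type and less RNA per cell cannot be told apart.

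Some of the genes shared a pattern that none of the study's factors defined. Hk2, Gys1 and Hk1 were low together in the libraries of mice numbered 17 to 32. Hk2 had a median of 249 CPM there, against 494, 367 and 404 CPM in mice 1 to 16, 33 to 48 and 49 to 64. For Gys1 the medians were 160.2 against 277, 227 and 264 CPM, and for Hk1 they were 4.36 against 9.94, 8.504 and 10.3 CPM. The share of counts from mitochondrial rRNA had its lowest median in the same mice (1.84%, against 6.55%, 2.67% and 5.13%). Across the 63 libraries, the log2 CPM of Hk1, Hk2 and Gys1 had Pearson's r of 0.76, 0.72 and 0.73 with the log2 of that share, while the other 7 genes lay between -0.29 (Gbe1) and 0.32 (Tbc1d1). Values in 1 library share its RNA and its depth, so these correlations are descriptions. Treatment and time of day were balanced over the 4 blocks of mouse numbers (7 or 8 mice of each in a block), but genotype was not, with 10 HIF1α KO and 6 fl/fl mice among numbers 17 to 32. Exercised fl/fl mice at ZT3 had no mouse in that block, and sedentary fl/fl mice at ZT3 had 2.

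**Figure D1:**
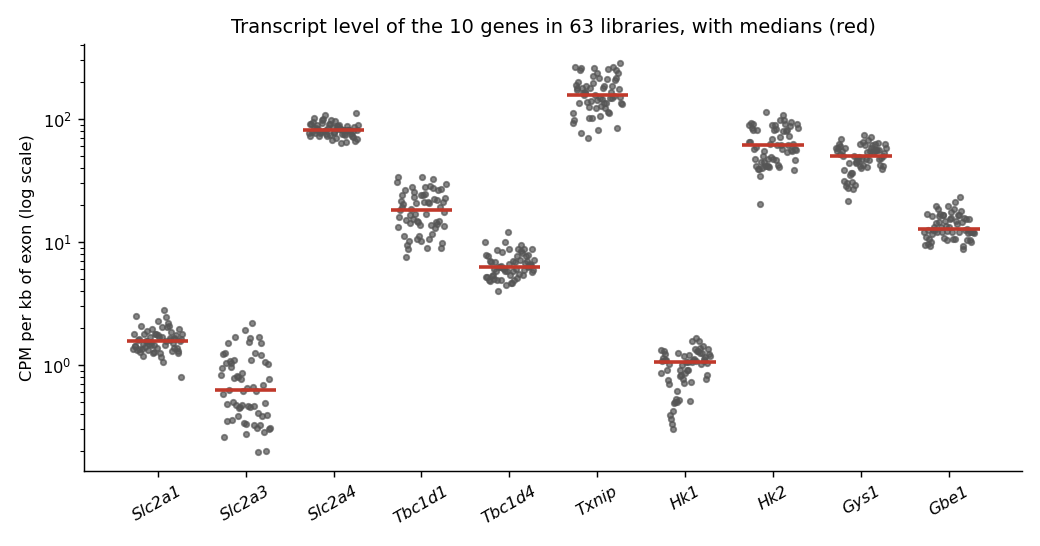
Level of each of the 10 genes in 63 libraries as CPM per kb of exon on a log axis, with each point a mouse in library order and a red bar at the median. Txnip, Slc2a4, Hk2 and Gys1 had no mouse as low as the highest mouse of Slc2a1, Hk1 or Slc2a3.

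Per kb of exon, the most abundant transcript was Txnip, at 166 ± 53.3 CPM per kb (SD, n = 63), followed by Slc2a4 (82.6 ± 9.998), Hk2 (64.3 ± 21.3) and Gys1 (49.3 ± 12.04). Tbc1d1 (18.8 ± 6.97) exceeded its paralog Tbc1d4 (6.62 ± 1.58), with Gbe1 (13.7 ± 3.19) between them. The constitutive transporter Slc2a1 (1.62 ± 0.359), Hk1 (0.976 ± 0.331) and Slc2a3 (0.771 ± 0.474), which encodes the neuronal-type transporter GLUT3, were at the bottom. Neighbors in this order overlapped in their ranges over mice, except that the lowest Tbc1d4 (3.97) lay above the highest Slc2a1 (2.79). The muscle forms GLUT4 and hexokinase 2 thus lay above the broadly expressed forms GLUT1 and hexokinase 1 in every mouse. Variation between mice was smallest for Slc2a4, whose coefficient of variation was 12.1%, and largest for Slc2a3, at 61.5%. Exons of Gys1 share 310 bp with those of Ruvbl2, a protein-coding gene on the opposite strand. Exons of Txnip share 606 bp with those of the antisense gene Gm15441. Without a stated strand setting the reads of these pairs could not be told apart there. Over all 64 libraries the median counts were 260 for Ruvbl2 and 3270.5 for Gys1, and 4.5 for Gm15441 and 9018 for Txnip.

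**Figure D2:**
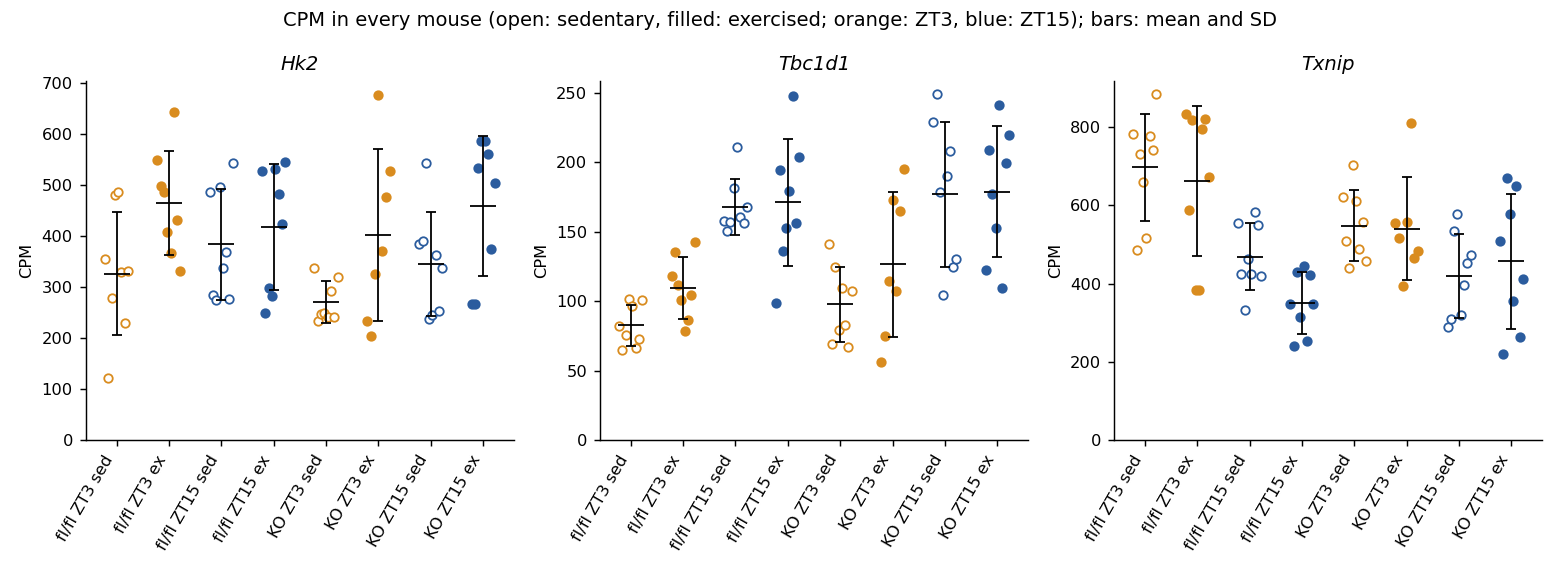
CPM of Hk2, Tbc1d1 and Txnip in each mouse of the 8 groups (open for sedentary, filled for exercised, orange for ZT3, blue for ZT15), with bars for the mean and SD. Tbc1d1 was higher and Txnip lower at ZT15, and the median of Hk2 was higher in the exercised group of each pair.

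Exercise raised 1 of the 10 transcripts, the insulin- and contraction-responsive hexokinase Hk2 (chromosome 6, 82725025 to 82774454, minus strand, GRCm38). In sedentary mice Hk2 ran from 123 to 543 CPM with a median of 325 (n = 32), and in exercised mice from 205 to 677 CPM with a median of 478 (n = 31). The ranges overlapped widely, and 24 of 31 exercised mice lay above the sedentary median. The log2 fold change, averaged over genotype and time, came to 0.42 ± 0.11 (SE, adjusted p = 0.0235 by the quasi-likelihood test of edgeR, adjusted over 15241 genes), in a comparison that called 433 genes, 2.84% of those tested at an adjusted p under 0.1. The difference was positive in each block of mouse numbers, at 0.23, 0.14, 0.59 and 0.64 on the log2 scale, and with the block as a covariate it was 0.39 with a smaller adjusted p of 0.000403. With the log2 share of mitochondrial rRNA as a covariate it was 0.40.

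Within the 4 pairs of groups, Hk2 moved by 0.52 ± 0.22 in fl/fl at ZT3, 0.14 ± 0.22 in fl/fl at ZT15, 0.60 ± 0.22 in HIF1α KO at ZT3 and 0.41 ± 0.22 in HIF1α KO at ZT15 on the log2 scale. At ZT3 the fl/fl values were 123 to 486 with a median of 331 CPM when sedentary and 332 to 644 with a median of 459.7 CPM after exercise, and all 8 exercised mice exceeded the sedentary median. HIF1α KO mice at ZT3 had 234 to 339 with a median of 249 CPM when sedentary and 205 to 677 with a median of 372 CPM after exercise. The sedentary HIF1α KO values at ZT3 were thus tightly grouped and the exercised ones spread from below to above them. At ZT15 the medians were 354 and 454 CPM in fl/fl and 351 and 519 CPM in HIF1α KO, sedentary and exercised. The block of mouse numbers with the lowest Hk2 was spread unevenly over the fl/fl pairs. It held 2 of 8 sedentary and 0 of 8 exercised fl/fl mice at ZT3, and 1 of 8 and 3 of 8 at ZT15. In HIF1α KO it held 3 sedentary and 3 exercised mice at ZT3, and 2 and 2 at ZT15. The part of this block in the fl/fl values of 0.52 and 0.14 was not tested. None of the 10 genes passed the threshold in any single pair, by edgeR or by DESeq2, in comparisons that called 36 genes (0.236%) in fl/fl at ZT3, 0 genes (0.0%) in fl/fl at ZT15, 20 (0.131%) in HIF1α KO at ZT3 and 9 (0.0591%) in HIF1α KO at ZT15. At an unadjusted p under 0.05 there were 2, 1, 2 and 1 of the 10 genes in these pairs, and 2104, 1406, 772 and 845 of all 15241. DESeq2 called 74, 16, 62 and 34 of all genes. The difference of the Hk2 exercise effect between genotypes was 0.17 with a 95% interval of -0.25 to 0.60, which spans 0.

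The other 9 transcripts did not pass the test for exercise, with adjusted p from 0.302 (Gbe1) to 0.928 (Gys1). For the transporters, the 95% intervals of the log2 fold change were -0.12 to 0.033 for Slc2a4, -0.0012 to 0.28 for Slc2a1 and -0.37 to 0.056 for Slc2a3. The interval for Slc2a4, the GLUT4 gene, is the narrowest of the 10. Gbe1 had 0.19 ± 0.079 and Tbc1d1 had 0.19 ± 0.081, both at an unadjusted p under 0.05 (3 of the 10 genes with Hk2, and 1661 of all 15241). Gys1 had 0.049 ± 0.09 and Txnip had -0.12 ± 0.075. In single pairs the Txnip values were -0.13 and -0.44 in fl/fl at ZT3 and ZT15, and -0.0016 and 0.10 in HIF1α KO. None of these passed, with adjusted p of 0.414 or more (edgeR). The median of the 10 log2 fold changes was 0.066, against -0.0037 over all tested genes.

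Time of day moved 2 of the 10 transcripts. Tbc1d1 (chromosome 5, 64156305 to 64351486, plus strand) was higher at ZT15 and Txnip (chromosome 3, 96557957 to 96561883, plus strand) was lower at ZT15, and none of the other 8 transcripts passed the test in the average. Tbc1d1 ran from 56.01 to 196 CPM with a median of 101 at ZT3 (n = 31) and from 98.96 to 249 CPM with a median of 172 at ZT15 (n = 32), with 31 of 32 mice at ZT15 above the ZT3 median. Its log2 fold change averaged over the 4 combinations of genotype and treatment was 0.75 ± 0.082 (adjusted p = 2.97e-10, edgeR). Txnip ran from 383 to 884 CPM with a median of 588 at ZT3 and from 219 to 669.5 CPM with a median of 423 at ZT15, where 30 of 32 mice lay at or below the ZT3 median. Its log2 fold change was -0.56 ± 0.076 (adjusted p = 1.26e-07, edgeR). This comparison called 1222 genes, 8.02% of those tested. In the blocks of mouse numbers the differences were 0.50, 0.93, 0.98 and 0.71 for Tbc1d1 and -0.71, -0.57, -0.42 and -0.49 for Txnip, so both kept their sign in all 4.

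In sedentary fl/fl mice the Tbc1d1 groups did not overlap, with 65.3 to 101 with a median of 79.1 CPM at ZT3 and 151 to 211 with a median of 159.6 CPM at ZT15. That difference was 1.01 ± 0.16 on the log2 scale (adjusted p = 7.8e-05, edgeR), where 1.88% of genes were called. After exercise the fl/fl values were 78.8 to 143 with a median of 108 CPM at ZT3 and 98.96 to 248 with a median of 168 CPM at ZT15, and the groups overlapped. The log2 difference was 0.61 ± 0.16 (adjusted p = 0.0524, edgeR, background 1.18%), and this call was lost without any 1 of mice 19, 37 or 39 at ZT15 or 36, 48 or 50 at ZT3 (0.53 to 0.60, highest adjusted p = 0.146, edgeR). Sedentary HIF1α KO mice had 66.8 to 141 with a median of 95.5 CPM at ZT3 and 105 to 249 with a median of 185 CPM at ZT15, a log2 difference of 0.86 ± 0.16 (adjusted p = 0.00141, edgeR, background 0.479%). In exercised HIF1α KO mice, where 0.663% of genes but none of the 10 were called by edgeR or DESeq2, the medians were 115 and 188 CPM and the difference was 0.53 ± 0.17 (adjusted p = 0.167, edgeR). Of the 10 genes, 2 had an unadjusted p under 0.05 there, as did 1623 of all 15241. Tbc1d1 at ZT3 had higher medians after exercise than in sedentary mice in both genotypes, and at ZT15 the ratios of exercised to sedentary means were 1.02 in fl/fl and 1.01 in HIF1α KO, but the difference between times (-0.36 ± 0.16, adjusted p = 0.9, edgeR) did not pass the test.

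Txnip in sedentary fl/fl mice was 487 to 884 with a median of 736 CPM at ZT3 and 332 to 582 with a median of 444 CPM at ZT15, and 5 of 8 mice at ZT15 lay below every mouse at ZT3. The log2 difference was -0.59 ± 0.15 (adjusted p = 0.0359, edgeR), and it missed the threshold without sedentary mouse 62 at ZT3 (adjusted p = 0.102, edgeR). In exercised fl/fl mice the values were 383 to 832 with a median of 733 CPM at ZT3 and 239.7 to 445 with a median of 346 CPM at ZT15, with a log2 difference of -0.91 ± 0.15 (adjusted p = 0.000166, edgeR). The fl/fl mice at ZT3 thus had the highest Txnip of the 8 groups, with medians of 736 and 733 CPM. HIF1α KO mice had medians of 533 and 424 CPM at ZT3 and ZT15 when sedentary and 516 and 459.6 CPM when exercised, and their log2 differences of -0.43 ± 0.15 and -0.32 ± 0.15 did not pass the test. A passing call in fl/fl and a missing one in HIF1α KO do not by themselves show a difference. The difference between genotypes was 0.38 ± 0.15 (SE) with an adjusted p of 0.981 (edgeR), which did not pass.

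Of the remaining genes, Slc2a3 (0.26 ± 0.11), Tbc1d4 (-0.17 ± 0.064) and Slc2a1 (0.16 ± 0.073) had an unadjusted p under 0.05 for time of day, as did 2666 of all 15241 genes, but adjusted p of 0.161, 0.126 and 0.215 (edgeR). Slc2a4 (0.068 ± 0.038), Hk2 (0.15 ± 0.11), Gys1 (0.16 ± 0.09), Gbe1 (0.10 ± 0.079) and Hk1 (0.033 ± 0.14) had adjusted p of 0.361 or more. Neither exercise nor time of day had a called marker among those of muscle fibers, slow fibers, endothelium, blood, leukocytes, adipocytes or Schwann cells, and 1 of 5 fibroblast markers was higher at ZT15. All 7 slow fiber markers nonetheless had positive exercise values, from 0.21 (Myl3) to 0.42 (Myh7) on the log2 scale with a median of 0.30, beside 0.42 for Hk2. Their summed level ran from 354 to 1773 CPM with a median of 958 in sedentary mice and from 346 to 3833 CPM with a median of 1093 in exercised mice, and their part in the Hk2 difference was not tested.

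**Figure D3:**
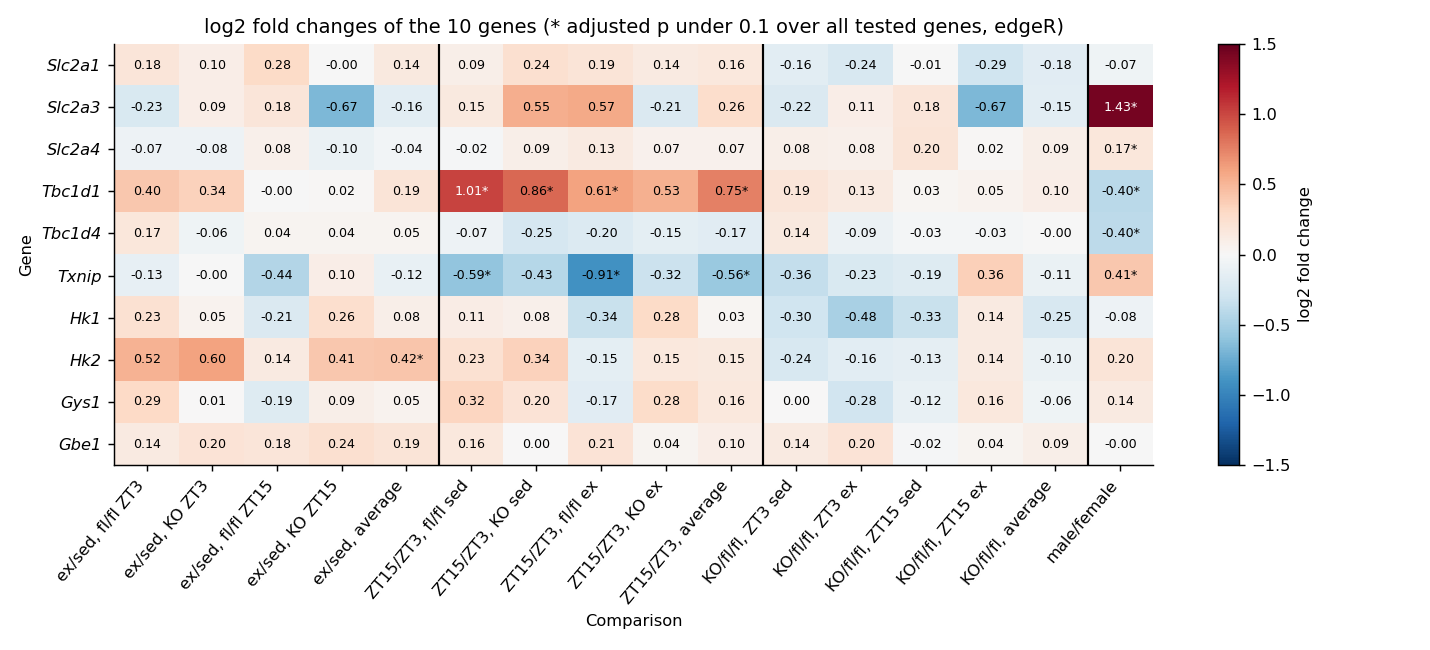
log2 fold changes of the 10 genes (rows) in the comparisons of exercise, time of day, genotype and sex (columns), red for higher and blue for lower in the first-named condition, with an asterisk for an adjusted p under 0.1. Asterisks fall on Hk2 for exercise, on Tbc1d1 and Txnip for time of day, on none for genotype and on 5 genes for sex.

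For genotype, none of the 10 transcripts passed the test in the average over both sexes, by edgeR or by DESeq2, although 1259 genes (8.26%) were called in that comparison. Of the 10, 2 had an unadjusted p under 0.05, as did 3105 of all 15241 genes, so the 10 were near the background. These were Slc2a4, at 278 ± 28.8 CPM in fl/fl and 297 ± 38.2 CPM in HIF1α KO (log2 0.093 ± 0.038, adjusted p = 0.144, edgeR), and Slc2a1, at 6.01 ± 1.52 CPM and 5.34 ± 0.806 CPM (log2 -0.18 ± 0.073, adjusted p = 0.154, edgeR). The third transporter gene, Slc2a3, had -0.15 ± 0.11 (adjusted p = 0.444, edgeR). Of the hexokinase genes, Hk2 had a log2 difference of -0.10 (95% interval -0.31 to 0.12) and Hk1 of -0.25 (-0.51 to 0.022). With the log2 share of mitochondrial rRNA as a covariate the value for Hk1 was -0.18, and its genotype groups were unequal in the low block of mice. Gys1, Gbe1, Tbc1d1, Tbc1d4 and Txnip had log2 differences of -0.059, 0.089, 0.10, -0.00083 and -0.11.

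In single pairs, the genotypes differed in 61 genes (0.4%) in sedentary mice at ZT3, 7 (0.0459%) in sedentary mice at ZT15, 218 (1.43%) in exercised mice at ZT3 and 61 (0.4%) in exercised mice at ZT15, and none of the 10 was among them by edgeR or DESeq2, which called 89, 16, 483 and 89 genes. At an unadjusted p under 0.05 there were 1, 1, 0 and 3 of the 10, and 1038, 1610, 2648 and 1129 of all 15241 genes. The interactions of exercise with time of day, of exercise with genotype, of time of day with genotype and of all 3 called 0 of 15241 genes each (0.0%) by edgeR, and 0, 0, 0 and 1 by DESeq2, none of the 10. At an unadjusted p under 0.05 there were 648, 306, 648 and 2196 genes, 1 of the 10 in each: Tbc1d1, Txnip, Txnip and Slc2a3.

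Sex, which the models carried as a covariate, called 5 of the 10 genes where 25.1% of all genes were called. Slc2a3, the GLUT3 gene (chromosome 6, 122727809 to 122801640, minus strand), ran from 1.43 to 6.07 CPM with a median of 2.83 in females (n = 32) and from 4.43 to 15.99 CPM with a median of 7.62 in males (n = 31), and 22 of 31 males lay above every female. The mean in males was 8.25 ± 2.98 CPM (SD) against 3.01 ± 1.06 CPM in females, and the log2 difference was 1.43 ± 0.11 (adjusted p = 5.58e-17, edgeR). Within each of the 8 groups the male mean exceeded the female mean, by 1.68 to 4.64 times, and in 7 of them every male lay above every female. Males were also higher in Txnip (0.41 ± 0.076, adjusted p = 2.89e-05, edgeR) and, by a small margin, in Slc2a4 (0.17 ± 0.038, adjusted p = 0.000499, edgeR). The genes of the Rab GTPase-activating proteins were lower in males, with log2 differences of -0.40 ± 0.082 for Tbc1d1 and -0.40 ± 0.064 for Tbc1d4 (adjusted p = 0.00015 and 1.79e-06, edgeR).

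All 5 kept their sign within each block of mouse numbers, with Slc2a3 at 1.36, 1.02, 1.64 and 1.59 and Tbc1d1, the least even of them, at -0.30, -0.55, -0.027 and -0.65. Tbc1d4 was 35.9 to 91.8 with a median of 58.8 CPM in females and 30.5 to 54.7 with a median of 44.5 CPM in males. No male exceeded the female median of Tbc1d4. For Tbc1d1 the ratio of male to female means was 0.61 to 0.647 in the 4 HIF1α KO groups and 0.715 to 1.101 in the 4 fl/fl groups, but the test of that difference did not pass (-0.56 ± 0.15, adjusted p = 0.372, edgeR). For Txnip it was above 1 in 7 of 8 groups, from 0.962 in sedentary fl/fl mice at ZT3 to 1.93 in exercised HIF1α KO mice at ZT15. Fiber and cell markers differed between the sexes too. All 7 slow fiber markers were lower in males (summed 624 to 3833 CPM in females and 346 to 1773 CPM in males), as were 5 of 6 adipocyte, 4 of 6 Schwann cell and 3 of 5 fibroblast markers, and 3 of 6 blood and 2 of 8 endothelial markers were higher. Of the 9 muscle fiber markers 3 were higher and 1 lower, and none of the 6 tested leukocyte markers passed. Their part in the sex differences was not tested.

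**Figure D4:**
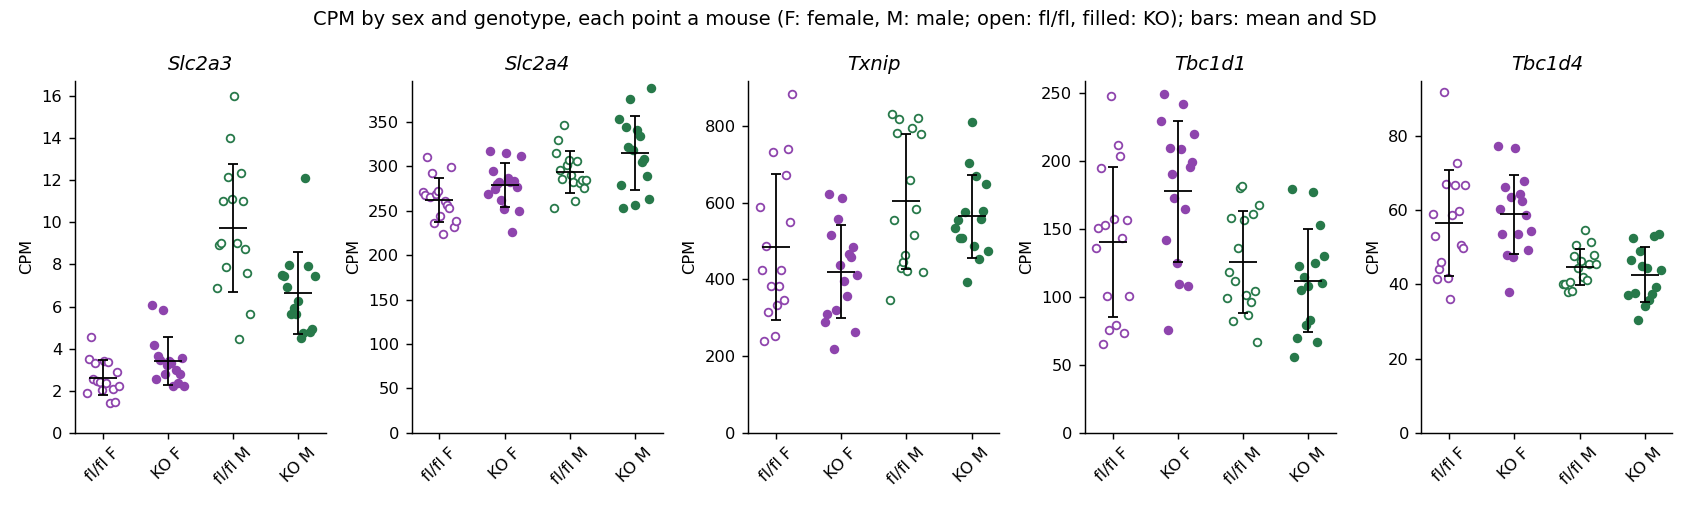
CPM of the 5 genes that differed between the sexes, in females (F, purple) and males (M, green) of each genotype (open, fl/fl; filled, HIF1α KO), with each point a mouse and bars for the mean and SD. Slc2a3 was higher in males. Its median in male HIF1α KO mice was below that in male fl/fl mice, with overlapping ranges, and the female medians were 2.42 CPM in fl/fl and 3.28 CPM in HIF1α KO.

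The genotype difference in Slc2a3 was not the same in the sexes. In a model with a separate mean for each sex in each group, chosen after seeing the data, the values in males were 4.43 to 15.99 with a median of 9.03 CPM in fl/fl (n = 16) and 4.48 to 12.1 with a median of 6.28 CPM in HIF1α KO (n = 15). In females they were 1.43 to 4.57 with a median of 2.42 CPM in fl/fl and 2.22 to 6.07 with a median of 3.28 CPM in HIF1α KO (n = 16 each). The groups overlapped in both sexes. The log2 fold change of HIF1α KO against fl/fl was -0.55 ± 0.13 in males (SE, adjusted p = 0.00724, edgeR) and 0.35 ± 0.14 in females (adjusted p = 0.459, edgeR). The difference between the sexes was -0.90 ± 0.19 with a 95% interval of -1.27 to -0.53 (adjusted p = 0.0323, edgeR), 1 of only 6 genes called in that comparison, 0.0394% of those tested. With the block of mouse numbers or the rRNA share in the model the difference was larger, at -1.14 and -1.16. It was negative in all 4 combinations of time and treatment, at -1.04 ± 0.36, -0.75 ± 0.37, -0.78 ± 0.39 and -1.03 ± 0.37 for sedentary mice at ZT3 and ZT15 and exercised mice at ZT3 and ZT15. None of these 4 differences passed the test (adjusted p of 0.668 or more, edgeR). In the same order, the genotype values were -0.65, -0.19, -0.24 and -1.102 in males and 0.39, 0.56, 0.54 and -0.07 in females. Of these, only the male value in exercised mice at ZT15 passed (adjusted p = 0.035, edgeR). Slc2a3 rested on 6 to 261 counts a library, and its sex-averaged difference of -0.15 averaged a negative value in males and a positive one in females. The female value passed the threshold with the rRNA share in the model (0.43, adjusted p = 0.0732, edgeR) and missed it with the block (0.43, adjusted p = 0.117, edgeR).

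Male HIF1α KO mice also had lower Hk2 (-0.45 ± 0.14, adjusted p = 0.0514, edgeR) and lower Hk1 (-0.51 ± 0.19, adjusted p = 0.0933, edgeR) than male fl/fl mice, in a comparison that called 2000 genes (13.1%). Both genes are among those that were low in 1 block of mouse numbers. Mice numbered 17 to 32 made up 6 of 15 male HIF1α KO and 2 of 16 male fl/fl mice, and the median share of mitochondrial rRNA was 2.51% and 5.51% in these groups, against 3.94% and 3.56% in female HIF1α KO and fl/fl mice. With the block of mouse numbers in the model the male values were -0.22 for Hk2 and -0.18 for Hk1 (adjusted p = 0.346 and 0.617, edgeR), and with the rRNA share they were -0.20 and -0.19, so neither call held. Female HIF1α KO mice had higher Tbc1d1 (0.38 ± 0.10, adjusted p = 0.0735, edgeR), where 133 genes (0.873%) were called, and this call held with either covariate (0.36 with the block and 0.33 with the rRNA share). For these 3 genes the difference between the sexes did not pass the test, at -0.67 ± 0.20 for Hk2, -0.50 ± 0.27 for Hk1 and -0.56 ± 0.15 for Tbc1d1 (adjusted p = 0.462, 0.486 and 0.372, edgeR). Gys1 also missed it, at -0.45 ± 0.18 (adjusted p = 0.462, edgeR), -0.20 with the block and -0.17 with the rRNA share. At an unadjusted p under 0.05 this difference had 4 of the 10 genes (Slc2a3, Tbc1d1, Hk2 and Gys1), and 1600 of all 15241. Hk2 had medians of 487 and 293 CPM in male fl/fl and HIF1α KO mice and 308 and 369 CPM in females. The exercise and time effects had no gene called as differing between the sexes (0.0% each by edgeR, with 405 and 547 genes and 1 of the 10 in each at an unadjusted p under 0.05). For exercise, Hk2 was at 0.55 ± 0.14 in females and 0.27 ± 0.14 in males. Txnip, the 1 of the 10 in both, was at -0.30 ± 0.094 in females and 0.063 ± 0.095 in males for exercise, neither passing (edgeR). For time of day, Tbc1d1 was at 0.82 ± 0.10 and 0.71 ± 0.11, and Txnip at -0.73 ± 0.094 and -0.38 ± 0.10, in females and males.

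**Figure D5:**
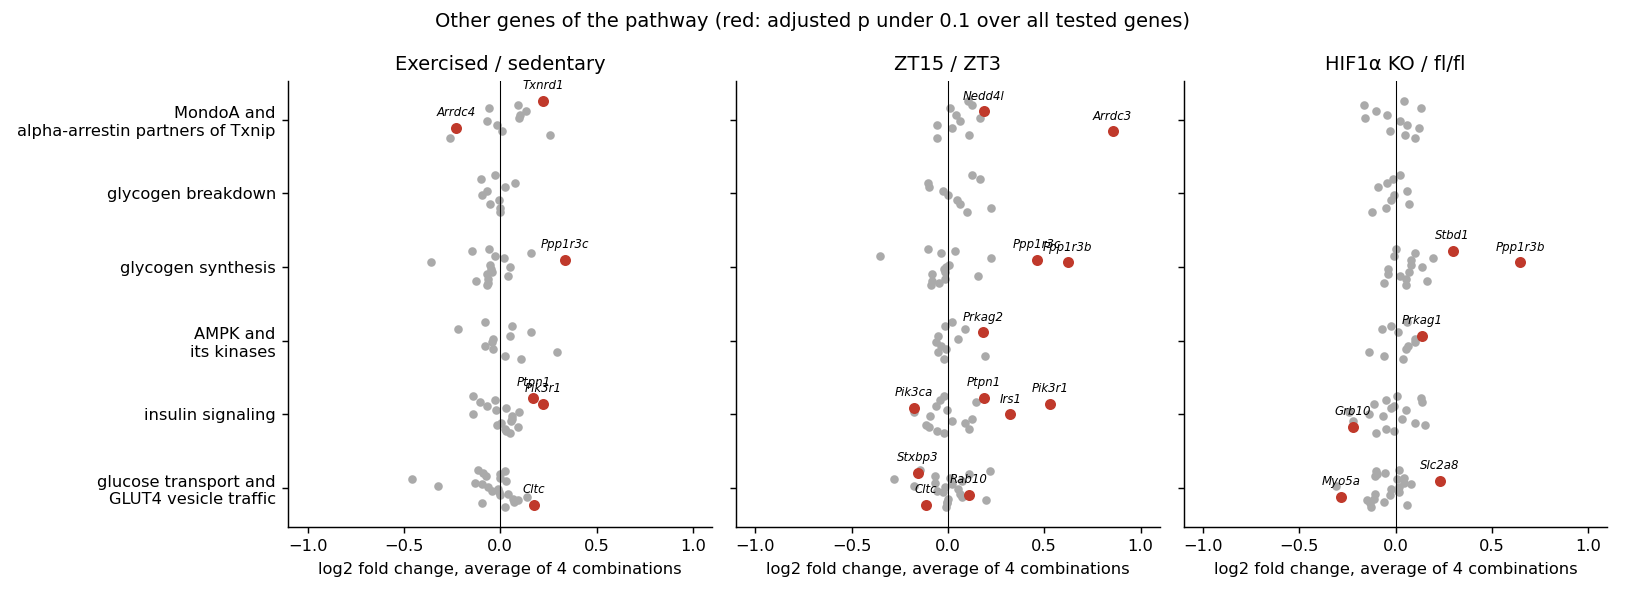
log2 fold changes averaged over 4 combinations for the other genes of the pathway, by list (rows), for exercise, time of day and genotype, with named red points for an adjusted p under 0.1. Ppp1r3c was red for exercise and time of day, and Ppp1r3b for time of day and genotype.

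Other genes of the pathway were read from 6 lists that leave out the 10. In glucose transport and GLUT4 vesicle traffic (24 of 27 genes tested), 1 gene was higher after exercise, 1 higher and 2 lower at ZT15, and 1 higher and 1 lower in HIF1α KO. Insulin signaling (19 genes) had 2 higher after exercise, 3 higher and 1 lower at ZT15, and 1 lower in HIF1α KO. AMPK and its kinases (12 genes) had none called for exercise, 1 higher at ZT15 and 1 higher in HIF1α KO. Glycogen synthesis (17 of 18 genes tested) had 1 higher after exercise, 2 higher at ZT15 and 2 higher in HIF1α KO. Glycogen breakdown (10 genes) had none called by edgeR in any of the 3. MondoA and the arrestin partners of Txnip (12 genes) had 1 higher and 1 lower after exercise, 2 higher at ZT15 and none in HIF1α KO. The list medians lay between -0.053 and 0.084 on the log2 scale in these comparisons, against -0.0037, -0.0034 and -0.0028 over all tested genes. These counts stand beside 2.84%, 8.02% and 8.26% of all tested genes called for exercise, time of day and genotype, in either direction.

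Genes for glycogen-targeting subunits of protein phosphatase 1, which bring the phosphatase to glycogen synthase, were among them. Ppp1r3c had 828 ± 275 CPM (SD) in sedentary and 1028 ± 262 CPM in exercised mice, a log2 fold change of 0.34 (adjusted p = 0.0214) by edgeR, and it was higher at ZT15 by 0.46 (adjusted p = 0.00023). Ppp1r3b, a scarce transcript at 1.501 ± 0.789 CPM in fl/fl and 2.34 ± 1.02 CPM in HIF1α KO, had log2 fold changes of 0.62 (adjusted p = 0.00192) for ZT15 and 0.65 (adjusted p = 0.00198) for HIF1α KO by edgeR. The glycogen-binding protein gene Stbd1 was also higher in HIF1α KO, by 0.30 (adjusted p = 0.0129).

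After exercise, the clathrin heavy chain gene Cltc rose by 0.18 (adjusted p = 0.00207), the thioredoxin reductase gene Txnrd1 by 0.22 (adjusted p = 0.00629), the PI3-kinase regulatory subunit gene Pik3r1 by 0.22 (adjusted p = 0.0365) and the insulin receptor phosphatase gene Ptpn1 by 0.17 (adjusted p = 0.093), all by edgeR. Arrdc4, an arrestin close to Txnip, had a log2 fold change of -0.23 (adjusted p = 0.0586). At ZT15 the largest of these changes was in another arrestin, Arrdc3, at 62.02 ± 24.2 CPM at ZT3 and 113 ± 51.3 CPM at ZT15, a log2 fold change of 0.85 (adjusted p = 3.15e-07), opposite in sign to Txnip. Pik3r1 rose by 0.53 (adjusted p = 2.75e-09), Ptpn1 by 0.18 (adjusted p = 0.0285), the ubiquitin ligase gene Nedd4l by 0.19 (adjusted p = 0.0619), the AMPK subunit gene Prkag2 by 0.18 (adjusted p = 0.096) and Rab10, a GTPase of GLUT4 vesicles, by 0.11 (adjusted p = 0.0773). Lower at ZT15 were the PI3-kinase catalytic gene Pik3ca at -0.18 (adjusted p = 0.00547), the syntaxin-binding gene Stxbp3 at -0.16 (adjusted p = 0.0164) and Cltc at -0.11 (adjusted p = 0.051). In HIF1α KO the vesicle motor gene Myo5a was lower, at -0.28 (adjusted p = 0.000588), as was the adaptor gene Grb10, at -0.22 (adjusted p = 0.0129), and Slc2a8 (GLUT8) and the AMPK subunit gene Prkag1 were higher, by 0.23 (adjusted p = 0.0655) and 0.14 (adjusted p = 0.0533). Of the cell markers, 3 of 6 for Schwann cells and 1 of 5 for fibroblasts were lower in HIF1α KO (Schwann markers summed to 56.4 to 237 CPM in fl/fl and 48.6 to 212 CPM in HIF1α KO), and their part in these differences was not tested.

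The genes most like each of the 10 across the 63 libraries, by Pearson's r of log2 CPM among 12933 protein-coding genes, are given as descriptions with no test. Gys1 was closest to Gaa (0.95), Mfn2 (0.94) and Ogdh (0.94), Hk2 to Diaph1 (0.90), Ppp1r12b (0.87) and Micall1 (0.87), and Hk1 to Gpkow (0.89), Mybbp1a (0.89) and Sec31a (0.89). These 3 hexokinase and synthase genes are the ones that followed the blocks of mouse numbers. Txnip was closest to the glycolytic regulator gene Pfkfb3 (0.80), 1810013L24Rik (0.71) and the clock repressor gene Nr1d1 (0.70), and Tbc1d1 to Atoh8 (0.80), Cntfr (0.77) and Ip6k3 (0.76). Slc2a3 was closest to Anxa7 (0.87), Actr3b (0.85) and Amd1 (0.85), and Slc2a4 to Tmbim6 (0.73), Ccdc85c (0.69) and Slc16a3 (0.69). For the remaining genes, Tbc1d4 was closest to Acss1 (0.74), Frem2 (0.67) and Slc27a1 (0.65), Gbe1 to Cox6c (0.67), Mcee (0.66) and Cab39 (0.65), and Slc2a1 to Cdh19 (0.54), Syt12 (0.53) and Thbd (0.50).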

How the data were processed

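Poly-A RNA of gastrocnemius muscle was sequenced as 52 bp read pairs. STAR alignment to mm10 and gene-level featureCounts were run by the authors, who deposited raw counts without normalization. Versions, annotation and strand setting are not given in the sources used here. Of 64 libraries, that of mouse 44 (382 counts) was left out. Identifiers were matched to GENCODE M21 (55141 of 55401). In R 4.3.3, edgeR 4.0.16 kept 15241 genes by filterByExpr (minimum count 10), scaled libraries by TMM and fitted quasi-likelihood models of group plus sex over 63 libraries. Comparisons were adjusted by Benjamini-Hochberg over all genes, and an adjusted p under 0.1 counted as called. CPM used TMM-scaled library sizes. Each standard error was the size of the fold change over the square root of F, and 95% intervals assumed a normal distribution. Alternatives included DESeq2 1.42.0. Fits were tested on simulated data. The 10 genes and the lists were chosen with earlier results of these data known. Beyond the 10 genes, named genes were up to 3 called genes with the smallest p per list and comparison, the 3 most alike genes, and Hif1a. Some genes and 1 gene list are not reported here.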

Additional observations from a re-analysis of the deposited data

Results flagged for a closer look

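The genotype difference of Slc2a3 differed between males and females by -0.90 on the log2 scale (adjusted p = 0.0323, edgeR), the only one of the 10 genes for which such a difference passed in the exercise, time or genotype comparisons averaged over their 4 combinations. It was tested as a contrast of genotype and sex in a model chosen after seeing the data.

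In 6 cases a single library stood apart from the rest of their group by the gap to the nearest mouse relative to the group's range, among 80 sets of 1 gene in 1 group, where chance gives about 1 in 20. Each was the highest of its group. In sedentary HIF1α KO mice at ZT15, mouse 43 had 12.1 CPM of Slc2a3 against 7.48 in the next. In exercised HIF1α KO mice at ZT3, mouse 28 had 376 CPM of Slc2a4 against 279 and mouse 34 had 809.9 CPM of Txnip against 556. Tbc1d4 was 72.9 CPM in exercised fl/fl mouse 52 at ZT15 against 50.7 in the next, and 91.8 CPM in exercised fl/fl mouse 36 at ZT3 against 59.8. Hk1 was 14.3 CPM in exercised fl/fl mouse 50 at ZT3 against 11.01 in the next.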

How the results depend on the processing

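No paired analysis was possible because every mouse has a number of its own, with none shared between groups. In averages over 4 combinations, the call of Hk2 for exercise and those of Tbc1d1 and Txnip for time of day passed in all 63 fits that left out 1 mouse and under every alternative run (RLE size factors, DESeq2, 2 other filters, all 64 libraries, without the 3 shallowest libraries, no sex term, and a covariate for the mouse-number block or the mitochondrial rRNA share). For Hk2 the log2 fold change ranged from 0.37 to 0.45 over the mice left out. No called value changed sign.

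The count of the 10 genes called for genotype was 0, but 1 with at least 10 counts in every library (Slc2a1, -0.19, adjusted p = 0.0933, edgeR), and it ranged from 0 to 1 over the mice left out. It was 1 without exercised HIF1α KO mouse 53 at ZT3 (Slc2a4, adjusted p = 0.0958, edgeR) or sedentary fl/fl mouse 7 at ZT3 (Slc2a1, adjusted p = 0.0847, edgeR). The count called for time of day was 2, but 4 with a covariate for the mouse-number block, which added Gys1 (0.17, adjusted p = 0.0521) and Tbc1d4 (-0.17, adjusted p = 0.0587, edgeR). In the same fit Gys1 and Hk2 passed for sex. Tbc1d4 passed for time of day in 6 of the fits that left out 1 mouse, and Slc2a3 in 2.

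The male minus female difference of the Slc2a3 genotype effect passed in all 63 fits that left out 1 mouse, from -0.99 to -0.86, with a highest adjusted p of 0.0696 (edgeR). It was -0.91 by DESeq2 and -1.14 with the block. Slc2a3 could not be fitted with at least 10 counts in every library. The lower Hk2 and Hk1 of male HIF1α KO mice were lost with either covariate. In exercised fl/fl mice, the time call of Tbc1d1 was lost with a threshold of 0.05, with no filter, with no sex term and without the 3 shallowest libraries, and in sedentary fl/fl mice that of Txnip was lost with no sex term. Low counts limit what can be said of Slc2a1, Slc2a3 and Hk1.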

Other observations

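The genotype effect also differed between males and females, past the threshold by edgeR, in C130080G10Rik (2.83), Shc2 (-0.996), Gbp7 (0.53) and Tfcp2l1 (-0.82), with the log2 difference of male minus female in parentheses. These 4 were named after their values were seen.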
